A study of Mus musculus with 6 samples.

Results

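The carriers described here are the mouse genes of 7 solute carrier (Slc) families that move amino acids across membranes, namely Slc1, Slc3, Slc6, Slc7, Slc36, Slc38 and Slc43. The set was chosen with earlier results of these data known, and its members were then taken by gene name alone. Of the 23235 entries of the RNA sequencing table, 59 carried such a name. RNA was sequenced from E14Tg2a mouse embryonic stem cells (ESCs) kept with leukemia inhibitory factor (LIF), and from the same line grown without LIF and given 1 µM all-trans retinoic acid (RA) for 48 h, called neuronal cells (NCs). Each condition had 3 samples of this 1 cell line, in a serum-containing medium that also held L-glutamine and a non-essential amino acid supplement. The table gives 1 FPKM value (sequenced fragments corrected for transcript length and library size) per gene and condition, which the authors made from the 3 samples together. The spread between samples is therefore unknown here. The authors' own test results were not used and no difference below was tested anew, so every fold change is a description of 2 values.

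Amino acids are charged or polar and cross the plasma membrane through carriers, many of which overlap in what they move. Cationic carriers (CATs) of the Slc7 family bring in arginine and lysine. Other Slc7 members are light chains that reach the cell surface only when bound to a heavy chain, either Slc3a2 (4F2hc, CD98) or Slc3a1 (rBAT). These pairs are exchangers, so they depend on other carriers to accumulate the amino acids they trade. The sodium-coupled Slc38 carriers of system A do this for small neutral amino acids, while the Slc1 family holds the glutamate carriers and the neutral ASC exchangers. Mouse ESCs are known to depend on threonine, and amino acid supply also feeds translation and the mTORC1 kinase. The families are defined by sequence, so a few members carry other substrates, such as creatine, taurine, monoamines or nucleobases.

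The cell labels were checked against marker genes. All 8 pluripotency markers were at least 2-fold lower in NCs, with Pou5f1 at 831.9 FPKM in ESCs and 37.1 in NCs, and all 6 RA response genes were at least 2-fold higher. Of 6 neural progenitor markers with at least 1 FPKM, 5 were at least 2-fold higher in NCs, and the summed level of all 7 listed was 22.8 FPKM in ESCs and 135.7 in NCs. The neuron markers did not go with the name of the condition. None of the 5 that passed 1 FPKM was higher in NCs, and Tubb3 was at 33.4 and 7.54 FPKM. Markers of extraembryonic endoderm were also higher in NCs, 5 of the 6 that passed by at least 2-fold, with sums over all 7 listed of 16.9 and 39.3 FPKM. Of 5 fibroblast or feeder markers that passed, 3 were at least 2-fold higher and 1 was lower, with sums over all 6 listed of 21.1 and 43.9 FPKM, and Lum was listed at 0 in ESCs and at 0.0691 in NCs. Only 1 of 4 astrocyte markers passed, and it was lower in NCs. The part of such other cells in the carrier values was not tested, and in these bulk samples fewer cells of a type and less RNA per cell cannot be told apart.

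The amino acid carriers were expressed at very different levels, from 0 to 101 FPKM. At least 1 FPKM in 1 or both conditions was reached by 33 of the 59 members (55.9%), against 57.2% of all entries. Of these 33, 5 were at least 2-fold lower in NCs (15.2%), while 10.6% of the 13293 entries past the same filter were. In the other direction, 6 were at least 2-fold higher in NCs (18.2%), against 12.5% of those entries. The remaining 22 differed by less than 2-fold. The median log2 ratio of NC over ESC was -0.16 over the 33 members and -0.03 over all entries that passed. These shares rest on 5 and 6 genes, lay near those of all entries and are not read as a difference from them. With at least 1 FPKM required in both conditions, 2 members were higher and 4 lower.

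The levels of the lower and the higher members, each read in the condition where it was higher, overlapped in range but not in median. The 5 lower members, Slc7a7, Slc7a3, Slc1a4, Slc1a1 and Slc38a3, stood between 1.67 and 34.9 FPKM in ESCs, with a median of 18.4. The 6 higher ones, Slc7a10, Slc38a5, Slc6a13, Slc36a4, Slc43a3 and Slc38a6, stood between 1.12 and 12.6 FPKM in NCs, with a median of 2.23. Over all entries the same medians were 8.31 FPKM for lower and 4.88 FPKM for higher genes, in the same order. Of the higher members, Slc7a10, Slc38a5, Slc6a13 and Slc36a4 were under 1 FPKM in ESCs and passed the filter only through NCs. Slc1a1, among the lower ones, passed only through ESCs. The levels thus depend in part on the filter. Among the 16 members with at least 10 FPKM, 3 were lower and 1 was higher, beside 8.49% lower and 6.97% higher of the 7642 entries at that level. With 1 FPKM added to both values, none of the 6 higher members and 4 of the 5 lower ones kept a 2-fold difference.

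**Figure D1:**
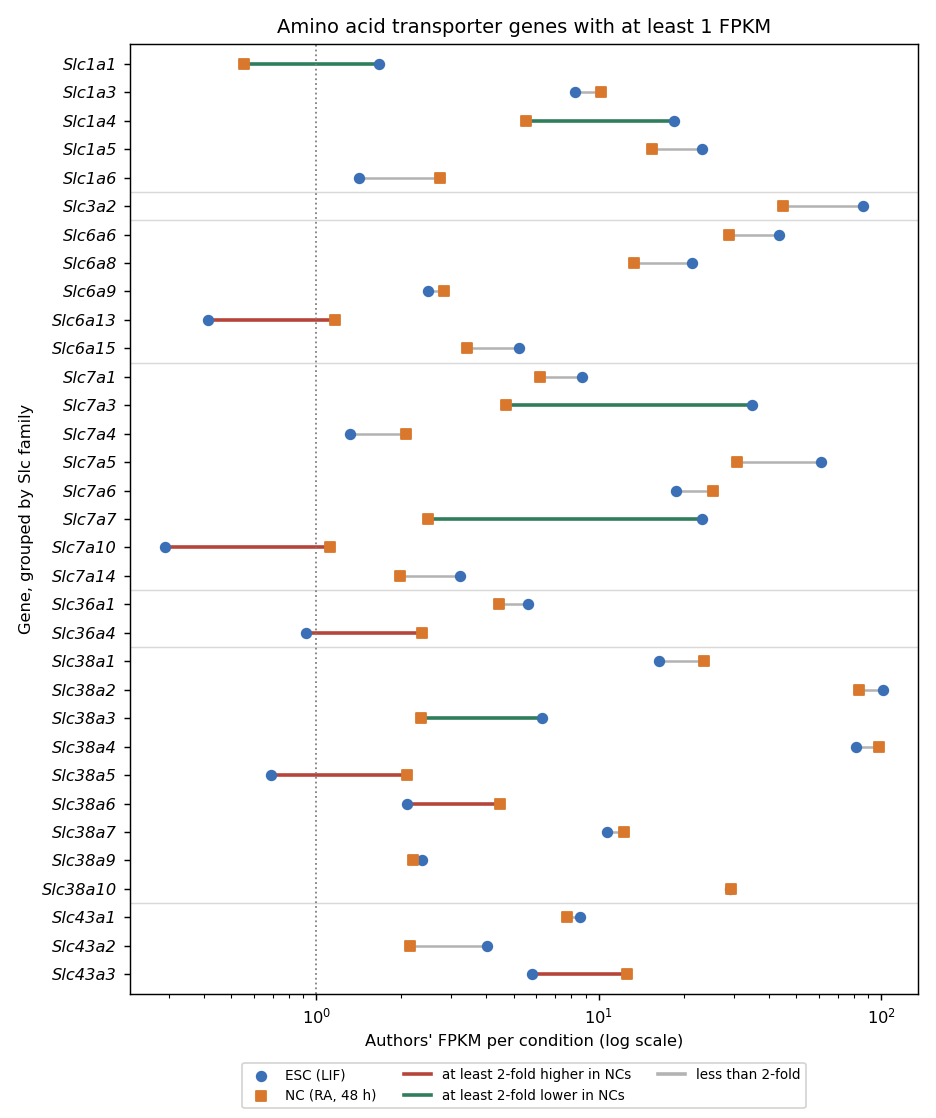
The authors' FPKM of the 33 members with at least 1 FPKM in 1 or both conditions, on a log axis, with ESCs as blue circles, NCs as orange squares and a line joining the values of a gene. Genes are grouped by Slc family. The ESC ends of the long green lines of Slc7a3 and Slc7a7 (34.9 to 4.70 and 23.2 to 2.49 FPKM) lie to the right of all red lines. Most red lines lie near the dotted line at 1 FPKM.

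**Figure D2:**
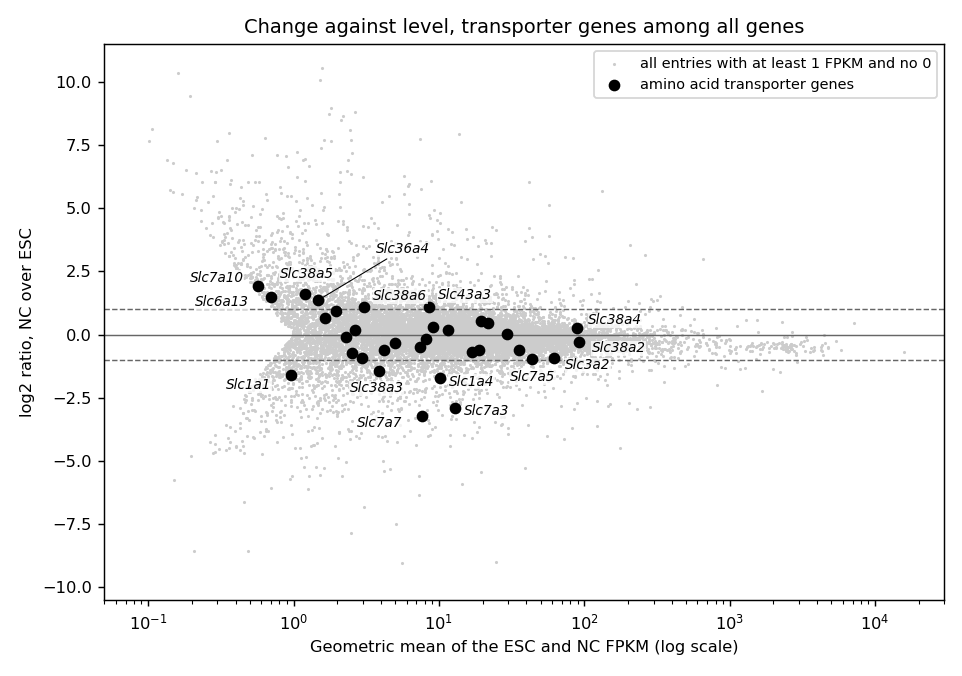
The log2 ratio of NC over ESC against the geometric mean of both FPKM values (log axis), with all entries of at least 1 FPKM and no 0 as grey points and the 33 transporter genes as black points. Dashed lines mark 2-fold, and Slc38a2, Slc38a4, Slc3a2 and Slc7a5, at the right of the black points, lie between them.

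Summed over the 59 members, carrier FPKM was 643 in ESCs and 497 in NCs, 1.30-fold lower. The FPKM of all entries summed to 770592 in ESCs and 628679 in NCs, and rescaling both conditions to the same sum moved every log2 ratio up by 0.29 and left the carrier sum 1.06-fold lower in NCs. Members made up 0.0835% of all FPKM in ESCs and 0.0790% in NCs. The Slc7 family had the largest difference of the 7 family sums, 153 FPKM in ESCs and 76.9 in NCs, and its share of the carrier FPKM was 23.7% and 15.5%. The Slc38 family stood at 250.5 and 258 FPKM, so that its share was 38.9% in ESCs and 52.0% in NCs. The Slc1 sum was 53.3 and 34.9 FPKM and the Slc6 sum 74.9 and 51.8 FPKM. The Slc43 family was at 18.4 and 22.4 FPKM, and Slc36 at 6.92 and 7.18 FPKM.

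Among the cationic carriers, which take up arginine, lysine and ornithine, the ESC level came mainly from Slc7a3 and the NC level did not. Slc7a3 (CAT-3; GRCm38 chrX:101079210-101086020, minus strand) was at 34.9 FPKM in ESCs and 4.70 in NCs, 7.44-fold lower. Slc7a1 (CAT-1), the widely expressed family member, was at 8.74 and 6.20 FPKM, a log2 ratio of -0.49. Slc7a2 (CAT-2) was at 0.473 and 0.999 FPKM, 2.11-fold higher but just under the 1 FPKM limit. The sum of the 3 genes was 44.1 FPKM in ESCs and 11.9 in NCs, 3.71-fold lower. Slc7a3 was 79.1% of that sum in ESCs and 39.5% in NCs, and Slc7a1 was 19.8% and 52.1%. The more distant Slc7a4 and Slc7a14 were at 1.32 and 2.08 FPKM and at 3.23 and 1.98 FPKM in ESCs and NCs. Slc7a14 is known as a lysosomal protein.

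The heavy chain Slc3a2 (chr19:8706882-8723369, minus strand) was the second highest member in ESCs, at 86.4 FPKM, and stood at 45.0 FPKM in NCs, 1.92-fold lower. Its main light chain, Slc7a5 (LAT1), which exchanges leucine and other large neutral amino acids for glutamine, was at 61.1 and 30.9 FPKM, 1.97-fold lower. Both lay just inside the 2-fold limit. The kidney and gut heavy chain Slc3a1 was at 0.0143 and 0.0429 FPKM, and its light chain Slc7a9 was at 0.202 and 0.244. The summed level of the 6 light chains that pair with Slc3a2 was 104 FPKM in ESCs and 60.7 in NCs, 1.71-fold lower. The ratio of heavy chain to summed light chains was 0.833 in ESCs and 0.741 in NCs.

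Within the light chains, the 2 y+LAT genes went opposite ways. Both proteins export arginine or lysine in exchange for a neutral amino acid with sodium. Slc7a7 (y+LAT1; chr14:54369442-54417780, minus strand) was at 23.2 FPKM in ESCs and 2.49 in NCs, 9.33-fold lower and the largest difference of the 33 members. Slc7a6 (y+LAT2; chr8:106168857-106198706, plus strand) was at 18.7 and 25.4 FPKM, a log2 ratio of 0.44. Slc7a6 was thus 44.6% of the y+LAT sum in ESCs and 91.1% in NCs. Among all 6 light chains, Slc7a7 made up 22.4% in ESCs and 4.10% in NCs, and Slc7a6 18.0% and 41.9%. Of the words of 50 bases in the exons of Slc7a7, 8.12% also lie in Oxa1l, an overlapping gene on the opposite strand at 35.2 and 28.3 FPKM, and the strand used in counting is not given in the sources used here.

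The other light chains of Slc3a2 were near or under 1 FPKM. Slc7a10 (Asc-1), which carries small neutral amino acids including D-serine, was at 0.292 FPKM in ESCs and 1.12 in NCs, 3.82-fold higher. Its exons overlap those of Lrp3 on the opposite strand, with 15.0% of words in common, and Lrp3 itself was at 3.66 and 12.8 FPKM. Slc7a8 (LAT2) was at 0.439 and 0.650 FPKM. Slc7a11 (xCT), the cystine/glutamate exchanger that feeds glutathione synthesis, was at 0.0780 and 0.0603 FPKM.

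**Figure D3:**
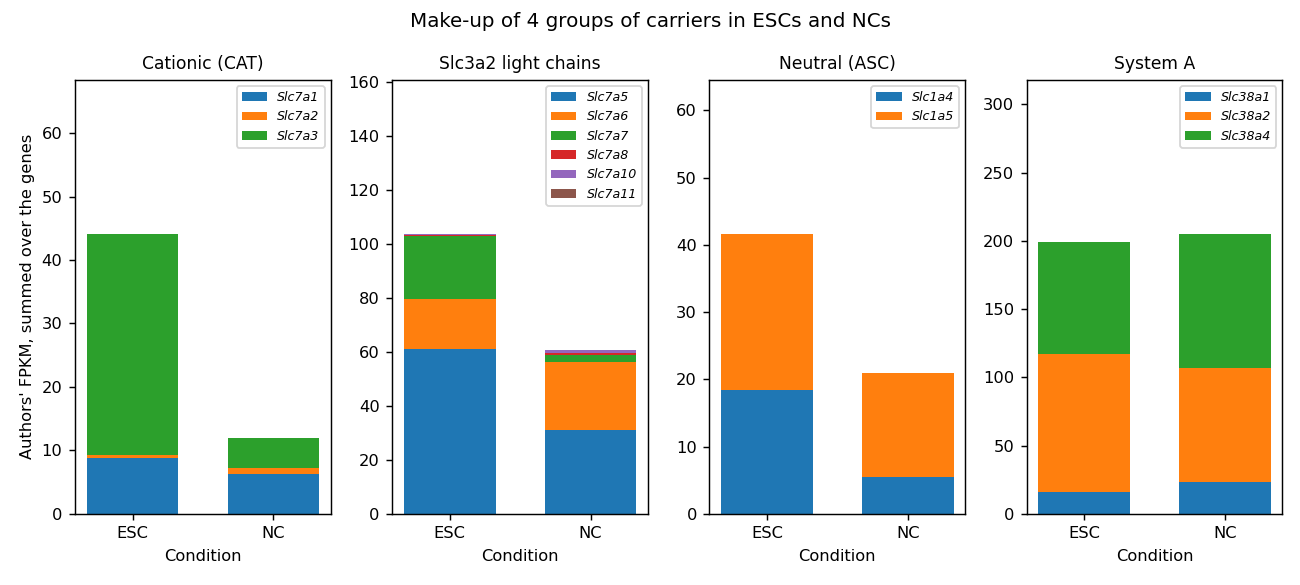
Stacked bars of the authors' FPKM in ESCs and NCs for the cationic carriers, the light chains of Slc3a2, the neutral ASC carriers and the system A carriers, with 1 colour per gene and a separate axis from 0 in each panel. The cationic sum was 44.1 in ESCs and 11.9 in NCs, while the system A sum was 199 and 205.

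The Slc1 family holds neutral and acidic carriers, and each kind had 1 member at least 2-fold lower. The ASC exchangers, which trade alanine, serine, cysteine and, for Slc1a5, glutamine, summed to 41.7 FPKM in ESCs and 20.9 in NCs, 1.99-fold lower. Slc1a4 (ASCT1; chr11:20302180-20332713, minus strand) was at 18.4 and 5.54 FPKM, 3.32-fold lower. Slc1a5 (ASCT2) was at 23.3 and 15.4 FPKM, a log2 ratio of -0.59, and made up 55.8% of the ASC sum in ESCs and 73.5% in NCs. The 5 glutamate carriers summed to 11.6 and 13.9 FPKM. Slc1a3 (GLAST) was the highest of them in both conditions, at 8.20 and 10.2 FPKM. Slc1a6 (EAAT4) was at 1.42 and 2.75 FPKM, 1.94-fold higher, and passed 2-fold once all ratios were centred on their median or both conditions rescaled to the same sum. Slc1a1 (EAAC1), the neuronal and epithelial carrier, was at 1.67 and 0.555 FPKM, 3.02-fold lower, a difference that fell under 2-fold with 1 FPKM added. It shares 30.1% of its words with 4430402I18Rik on the opposite strand, itself at 0.154 and 0.0510 FPKM. The glial carrier Slc1a2 (GLT-1) was at 0.0769 and 0.286 FPKM, and Slc1a7 at 0.236 and 0.152.

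The Slc38 family held the most abundant members. Slc38a2 (SNAT2), the system A carrier known to be induced by amino acid shortage, was at 101 FPKM in ESCs and 83.4 in NCs. Slc38a4 (SNAT4) was at 81.6 and 98.4 FPKM, a log2 ratio of 0.27, and Slc38a1 (SNAT1) at 16.3 and 23.5 FPKM, a log2 ratio of 0.53. The small difference of Slc38a2, a log2 ratio of -0.28, turned to 0.02 when both conditions were rescaled to the same sum. These 3 genes lie close together on chromosome 15, all on the minus strand (Slc38a1 at chr15:96571418-96642913, Slc38a2 at chr15:96687392-96699730 and Slc38a4 at chr15:96994820-97055956). The system A sum was 199 FPKM in ESCs and 205 in NCs.

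The system N carriers, which move glutamine, asparagine and histidine, had opposite differences. Slc38a3 (SNAT3; chr9:107650634-107669530, minus strand) was at 6.29 FPKM in ESCs and 2.35 in NCs, 2.68-fold lower. Slc38a5 (SNAT5; chrX:8271133-8280179, plus strand) was at 0.691 and 2.10 FPKM, 3.03-fold higher. Slc38a3 was 90.1% of their sum in ESCs and 52.9% in NCs.

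The other Slc38 members included intracellular carriers. Slc38a9, the lysosomal arginine carrier that signals to mTORC1, was at 2.37 and 2.20 FPKM, and its log2 ratio of -0.11 turned to 0.19 on rescaling to the same sum. Slc38a10 was at 29.2 and 29.5 FPKM, the closest pair of values among the 33 members. The lysosomal Slc38a7 was at 10.7 and 12.3 FPKM. Slc38a6 was at 2.10 and 4.47 FPKM, 2.13-fold higher, but 69.9% of the words of its exons also occur elsewhere among transcripts, and its values are uncertain for that reason.

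The highest Slc6 members carry substrates other than the protein amino acids. Slc6a6, the taurine carrier, was at 43.4 FPKM in ESCs and 28.8 in NCs, a log2 ratio of -0.59. Slc6a8, the creatine carrier, was at 21.3 and 13.3 FPKM, a log2 ratio of -0.68. Slc6a15 (B0AT2), a carrier of branched-chain amino acids and proline, was at 5.22 and 3.40 FPKM. Slc6a9 (GlyT1), the glycine carrier, was at 2.48 and 2.83 FPKM, with 38.9% of its words in common with the opposite-strand gene Ccdc24 at 4.26 and 5.07 FPKM. Slc6a13 (GAT2), a carrier of GABA and taurine, was at 0.413 and 1.17 FPKM, 2.83-fold higher.

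The proton-coupled Slc36 carriers and the Slc43 carriers each had 1 member at least 2-fold higher. Slc36a4 (PAT4; chr9:15709738-15743361, plus strand) was at 0.919 FPKM in ESCs and 2.36 in NCs, 2.57-fold higher. The lysosomal Slc36a1 (PAT1) was at 5.62 and 4.43 FPKM. Slc43a3 (chr2:84936579-84958509, plus strand), known as a nucleobase carrier rather than an amino acid carrier, was at 5.80 and 12.6 FPKM, 2.16-fold higher and the highest of the 6 higher members. Slc43a1 (LAT3) and Slc43a2 (LAT4), which let large neutral amino acids leave or enter without exchange, were at 8.61 and 7.73 FPKM and at 4.03 and 2.15 FPKM. The log2 ratio of Slc43a1, -0.16, turned to 0.14 on rescaling to the same sum, and Slc43a2 was 1.88-fold lower.

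The 26 members under 1 FPKM in both conditions had a median of 0.180 FPKM in the condition where each was higher. They included Slc1a2, Slc1a7, Slc3a1, Slc6a2, Slc6a3, Slc6a4, Slc6a5, Slc6a7, Slc6a11, Slc6a12, Slc6a14, Slc6a17, Slc6a18, Slc6a19, Slc7a2, Slc7a8, Slc7a9, Slc7a11, Slc7a12, Slc7a13, Slc7a15, Slc36a2, Slc36a3, Slc38a8 and Slc38a11. The group holds the noradrenaline, dopamine and serotonin carriers (Slc6a2, Slc6a3, Slc6a4), the inhibitory-neuron glycine carrier Slc6a5 and the kidney and gut carriers Slc6a18 and Slc6a19. Slc6a4 was at 0.0527 and 0.526 FPKM. The brain proline carrier Slc6a7 was at 0.779 and 0.138 FPKM, 5.63-fold lower, the nearest to the limit after Slc7a2. The depth per sample is unknown. Low values of genes with 1 transcript were multiplied by that length, and the higher of the 2 commonest results was taken as 1 fragment. A floor of 3 such fragments was set for each member. In NCs the 2 commonest results were 0.007 and 0.0135, so the higher may stand for more than 1 fragment and fragment numbers there are uncertain. The length meant is the transcript length in kilobases less the assumed fragment length. This floor was about 0.042 FPKM in ESCs and 0.0405 in NCs, divided by that length. The floor was thus lower for longer transcripts. Slc7a12 and Slc7a13 lay under it in both conditions, 3 more members lay under it in ESCs and 2 in NCs, and no fold is given for these. None of the 33 members above 1 FPKM was under it, and the lowest value among them corresponds to about 36.6 fragments.

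Promoters were read for the core letters of C/EBP-ATF composite elements, which are bound by ATF4, the transcription factor that answers amino acid shortage. RefSeq windows (GRCm38.p6) from 250 bases before to 50 after a start site were found for 41 of the 59 members, 62 windows in all, and both strands were searched for TGATGNAA. These letters occurred in 4 windows of 3 members, Slc7a7, Slc1a4 and Slc7a11, 7.32% of the 41, and in 4.51% of the 27025 genes with a window. The member share rests on 3 genes, and members had more windows per gene than all genes, which raises it. A part of ATF4 in the carrier levels was not tested. Slc7a7 and Slc1a4 are among the 5 lower members and are shown for that reason, and Slc7a11, a known ATF4 target, is shown beside them as one at 0.0780 and 0.0603 FPKM. Matches are in capitals, and positions are counted with the start site as 0. Slc7a7 (chr14:54417895-54418194, minus strand) held TGATGAAA at -141 to -134 and TGATGCAA at -1 to 6, the latter also within a second, overlapping window. Slc1a4 (chr11:20332664-20332963, minus strand) held TTGCATCA, the reverse strand of the motif, at -4 to 3. Slc7a11 (chr3:50443564-50443863, minus strand) held TGATGCAA at -66 to -59 and TTGCATCA at -47 to -40.
Slc7a7: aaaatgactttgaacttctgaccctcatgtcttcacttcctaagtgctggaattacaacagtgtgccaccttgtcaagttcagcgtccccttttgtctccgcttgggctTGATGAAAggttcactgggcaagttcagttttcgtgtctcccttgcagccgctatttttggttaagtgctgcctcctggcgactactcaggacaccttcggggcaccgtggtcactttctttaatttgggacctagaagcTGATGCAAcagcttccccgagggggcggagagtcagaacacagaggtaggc
Slc1a4: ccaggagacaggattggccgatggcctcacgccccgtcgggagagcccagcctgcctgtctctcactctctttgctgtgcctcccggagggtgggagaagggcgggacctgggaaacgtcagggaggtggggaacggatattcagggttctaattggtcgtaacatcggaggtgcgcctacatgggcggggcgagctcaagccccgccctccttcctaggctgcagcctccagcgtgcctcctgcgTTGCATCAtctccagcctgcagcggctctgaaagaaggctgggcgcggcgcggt
Slc7a11: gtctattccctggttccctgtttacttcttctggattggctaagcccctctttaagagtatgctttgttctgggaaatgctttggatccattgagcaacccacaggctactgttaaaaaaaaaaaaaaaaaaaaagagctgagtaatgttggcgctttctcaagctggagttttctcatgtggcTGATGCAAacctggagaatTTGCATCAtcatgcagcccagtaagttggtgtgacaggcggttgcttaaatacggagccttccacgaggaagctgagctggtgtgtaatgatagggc
The matches thus occurred in genes at 23.2, 18.4 and 0.0780 FPKM in ESCs, and they describe letters, not binding. Windows for Slc7a3, Slc7a5 and Slc38a3 were not used here. Exact direct repeats of AGGTCA with 5 bases between, as in the classic retinoic acid receptor element, were also searched. They were in 0 of the 62 member windows and in 3 of all 32851. At so low a rate 62 windows would hardly hold a match, and variants of the letters were not searched. The 0 therefore does not tell whether carriers have such elements.

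Genes that act with the carriers are given from 4 lists, without the members themselves. The lists were put together by hand with earlier results of these data known. Their shares beside those of all entries, here and in the next paragraphs, are therefore descriptions and not evidence of an excess. Genes of the response to amino acid shortage were mostly lower in NCs, 23 of 26. These are Atf4, Eif2ak4 (a kinase gene of the same response) and genes known as targets or partners of that response. All 26 passed 1 FPKM, 14 were at least 2-fold lower (53.8%, beside 10.6% of all entries) and none was at least 2-fold higher. The median log2 ratio was -1.06, beside -0.03 for all entries. Atf4 itself was at 123 FPKM in ESCs and 54.8 in NCs, and Asns, asparagine synthetase, at 158 and 69.2. Their log2 ratios of -1.17 and -1.19 would lie within 2-fold after rescaling to the same sum, which moved every ratio up by 0.29. The 4 lists were not recounted on that scale. The lowest ratios were those of Ddit4, an inhibitor of mTORC1 signalling, at 244 and 43.2 FPKM, of Cth, which makes cysteine, at 28.2 and 5.04 FPKM, and of Chac1, which breaks down glutathione, at 6.60 and 1.25 FPKM. The highest ratios were those of the transcription factors Cebpb, at 5.58 and 6.79 FPKM, and Atf5, at 11.2 and 12.8 FPKM, and of the kinase Eif2ak4 (GCN2), at 9.36 and 10.2 FPKM.

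Enzymes that use the carried amino acids also lay mostly lower, 23 of the 30 that passed. Of these 30, 11 were at least 2-fold lower (36.7%, beside 10.6% of all entries) and 2 were at least 2-fold higher (6.67%, beside 12.5%), with a median log2 ratio of -0.71, beside -0.03. Tdh, the threonine dehydrogenase of mouse ESCs, was at 111 FPKM in ESCs and 1.85 in NCs. Gad1, which makes GABA, was at 2.23 and 0.153 FPKM, and Cbs, of the transsulfuration pathway, at 15.3 and 1.86 FPKM. Both arginases, which split arginine into ornithine and urea, were higher in NCs. Arg1 was at 0.0850 and 35.7 FPKM and Arg2 at 0.674 and 13.4 FPKM, while the cationic carriers of arginine summed to 44.1 and 11.9 FPKM. The next highest ratio was that of Abat, which degrades GABA, at 2.20 and 3.18 FPKM.

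Of 30 genes for the sensing of amino acids upstream of mTORC1, 1 was at least 2-fold lower and 1 higher (3.33% each, beside 10.6% lower and 12.5% higher of all entries), and the median log2 ratio was -0.10, beside -0.03 for all entries. Gatsl3 (Castor1), an arginine sensor, was at 43.2 FPKM in ESCs and 13.3 in NCs, followed by Lamtor2, at 162 and 87.1 FPKM, and Seh1l, at 91.6 and 52.1 FPKM. Rragd, a GTPase of the lysosomal complex, was at 11.4 and 25.0 FPKM, followed by Gatsl2 (Castor2), at 4.84 and 8.34 FPKM, and Rraga, at 51.2 and 76.9 FPKM. Among 14 other amino acid and peptide carriers that passed, 2 were at least 2-fold lower (14.3%, near the 10.6% of all entries), none was at least 2-fold higher, beside 12.5%, and the median was -0.03, as for all entries. Slc15a1, a peptide carrier, was at 2.30 and 0.251 FPKM. The mitochondrial aspartate/glutamate carriers Slc25a12 and Slc25a13 were at 13.2 and 5.83 FPKM and at 48.3 and 24.6 FPKM. The highest ratios there were those of the vesicular glutamate carrier Slc17a7, at 2.21 and 3.12 FPKM, and of the lysosomal carriers Ctns, at 7.68 and 10.4 FPKM, and Pqlc2, at 4.60 and 6.14 FPKM.

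**Figure D4:**
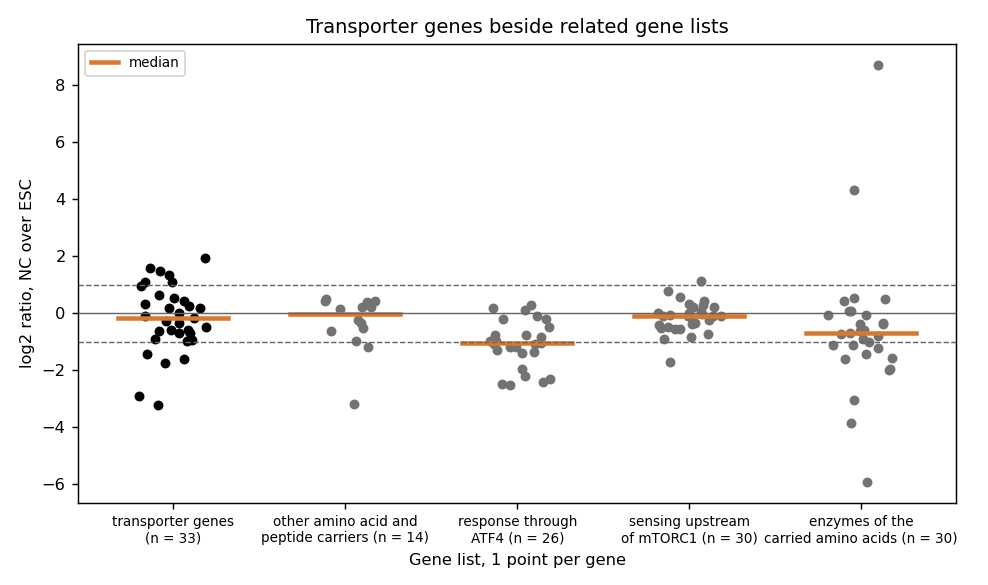
The log2 ratio of NC over ESC for each gene with at least 1 FPKM in the transporter families and in the 4 related lists, 1 point per gene with horizontal scatter for display only, orange bars at the medians and dashed lines at 2-fold. The medians were -0.16 for the transporters, -0.03 for other carriers, -1.06 for the ATF4 response, -0.10 for sensing upstream of mTORC1 and -0.71 for the enzymes.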

How the data were processed

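Per the labels and the study's methods, total RNA of 3 ESC and 3 NC samples was sequenced on an Illumina instrument, and the authors aligned reads to mm10 with TopHat2 (2.0.8) on the Bowtie2 aligner (2.1.0), assembled transcripts with Cufflinks 2.0.2 and compared conditions with Cuffdiff (version not given in the sources used here). The deposited values are FPKM, 1 per gene and condition, scaled by the authors for transcript length and mapped fragments. The same table holds the authors' fold changes, test statistics, p-values, q-values and status, which were not used. One column heading reads FPK and was taken as FPKM. Pooled values hide the spread between samples, so no test was run on them here.

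Log2 ratios of NC over ESC were computed without a pseudocount for entries with at least 1 FPKM in 1 or both conditions, and a limit of 2-fold was applied (Python 3.11.15, pandas 2.3.3, numpy 2.4.6). The code for the calls was run on a simulated table without noise, which checks its arithmetic only and not the calls on these data. Every member that passed was named (1 under the limit is not reported here), and of each list the 3 highest and 3 lowest ratios. Atf4, Asns and single markers were named after their values were seen. Positions and exon overlaps came from GENCODE M21 on GRCm38, the assembly of mm10. Overlap was measured in words of 50 bases, and fragment floors assumed fragments of 200 bases. Alternatives were other pseudocounts, filters, fold limits and scalings. Members and lists were chosen with earlier results of these data known.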

Additional observations from a re-analysis of the deposited data

How the results depend on the processing

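The log2 ratios of the 11 members past 2-fold kept their sign under every pseudocount and scaling tried, but this was fixed in advance. Adding 1 value to both conditions cannot change a sign, and the larger scaling shift was 0.29, too small to turn a 2-fold difference. The counts did not hold equally. Against 6 members higher, 5 lower and a median log2 ratio of -0.16, a pseudocount of 1 FPKM gave 0 higher, 4 lower and a median of -0.14, and one of 0.1 FPKM gave a median of -0.15. Without a filter 14 were higher and 9 lower, with a median of -0.044. With at least 5 FPKM 1 was higher and 4 were lower, with a median of -0.49. With at least 1 FPKM in both conditions 2 were higher and 4 lower, with a median of -0.31. With at least 10 FPKM, chosen after seeing the data, 1 was higher and 3 were lower, with a median of -0.43, beside 6.97% higher and 8.49% lower of all entries. At a limit of 1.5-fold 8 were higher and 13 lower, and at 4-fold 0 were higher and 2 lower. Centring gave 7 higher and 5 lower, and moved the median to -0.11. Rescaling both conditions to the same sum turned it to 0.16, with the 1 FPKM filter applied to the rescaled values, and gave 8 higher and 6 lower. The higher counts thus rested on members of low level. Among these settings, shares of all entries were computed only for the main one and for the filter of 10 FPKM. The other counts therefore do not tell whether the members differ from all entries.

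No paired analysis was possible because the table holds 1 value per condition, and leaving out single replicates was not run for the same reason. Depth per sample is unknown.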
